A study of Rattus norvegicus with 862 samples.

Results

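Fos, Egr1 and Junb are 3 of the 14217 genes measured in rat heart on this array. They were taken by name from the platform's table of probe sets and genes, and where a gene had several single-gene probe sets, that with the highest mean was used. Male Sprague Dawley CD-IGS rats, bought at 6 to 8 weeks of age, received a compound by oral gavage, by vein, under the skin, by a mini-pump under the skin or into the peritoneum, and control rats received the vehicle alone. The vehicles were CMC, water, corn oil, saline, a mixture of acacia, PS80 and antifoam, and a mixture of CMC, SDS and povidone. In all, 611 treated rats given 88 compounds and 217 control rats had usable labels, and hearts were taken after 0.25, 1, 3, 4, 5 or 7 days, at 1 day in the afternoon and at 3 and 5 days in the morning. The rats belonged to 65 studies, and the RNA was extracted in 5 campaigns. Values are log2 signals, on which a difference of 1 is a 2-fold change. A heart lysate mixes muscle cells, fibroblasts, endothelium and blood cells, and fewer cells of a type and less RNA per cell cannot be told apart.

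Immediate early genes are transcribed within minutes of a stimulus without new protein synthesis, because the factors that switch them on, such as serum response factor and CREB, are already in the nucleus. Fos encodes a leucine zipper protein that binds DNA as AP-1 only when paired with a Jun protein, Junb encodes such a Jun partner, and Egr1 encodes a zinc finger factor. Their messenger RNAs are destroyed quickly, so that a level follows recent transcription. In heart they are known to follow stretch, adrenergic stimulation and oxygen shortage.

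The sequence upstream of Egr1 and Junb is shown with its matches to elements through which these stimuli are known to act. RefSeq on the GRCr8 assembly places Egr1 at chr18:26737078-26740877 and Junb at chr19:40081126-40082910, both on the forward strand, and Fos at chr6:110852188-110855054. The 250 bases before each start are chr18:26736828-26737077 and chr19:40080876-40081125. Capitals mark matches on either strand to the CArG box, the element that serum response factor binds, to TGACG, the core of the CREB site, to the TATAAA box and to CCAAT, and none of these matches overlap.

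Egr1: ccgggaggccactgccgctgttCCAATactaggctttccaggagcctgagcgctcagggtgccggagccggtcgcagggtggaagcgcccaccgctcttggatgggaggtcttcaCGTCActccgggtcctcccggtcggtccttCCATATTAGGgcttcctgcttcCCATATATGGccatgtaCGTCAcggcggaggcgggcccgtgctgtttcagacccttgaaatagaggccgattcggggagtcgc

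Junb: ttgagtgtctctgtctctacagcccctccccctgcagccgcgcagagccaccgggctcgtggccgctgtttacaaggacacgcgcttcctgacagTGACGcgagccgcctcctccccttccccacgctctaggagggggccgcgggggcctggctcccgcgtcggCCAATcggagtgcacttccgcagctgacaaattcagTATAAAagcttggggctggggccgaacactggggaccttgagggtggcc

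The Egr1 stretch held 2 CArG boxes, at 105 to 96 and 83 to 74 bases before the start, and 2 TGACG matches on the opposite strand, at 135 to 131 and 66 to 62. The Junb stretch held no CArG box in this window, 1 TGACG match at 155 to 151, 1 CCAAT at 85 to 81 and 1 TATAAA at 49 to 44. Among the 33469 rat promoter windows of the same length, 1.5% held a CArG box, 18.2% TGACG, 12.9% TATAAA and 34% CCAAT. A match is a run of letters and says nothing about binding in these hearts.

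All 3 genes covered a wide range in treated and in control hearts. Fos ran between 3.70 and 12.8 with a median of 5.42 in treated rats, and between 3.80 and 12.3 with a median of 6.52 in control rats. Of the treated rats 41.1% lay under 5 and 17.0% at 9 or more, against 32.3% and 34.6% of the control rats, so the scale was filled from end to end in both groups. Egr1 ran between 5.80 and 12.8 (median 8.67) in treated rats and between 6.33 and 12.3 (median 9.19) in control rats. Junb, whose probe set moved least, ran between 7.04 and 11.3 (median 8.21) in treated rats and between 7.18 and 10.4 (median 8.23) in control rats. These are different probe sets, so the levels of the 3 genes were not set against each other.

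Few genes on the array varied as much. The SD over 840 rats was 2.60 for Fos (rank 2 of 14217 genes), 1.57 for Egr1 (rank 12) and 0.757 for Junb (rank 167), against a median of 0.236 over all genes. In 22 rats hybridised in 2 campaigns, the arrays of the same heart differed by a median of 0.671 for Fos, 0.514 for Egr1 and 0.233 for Junb. The largest such difference was 3.00 for Fos, so part of the spread arose between arrays of the same rat. The other Fos probe set ran only between 5.09 and 7.98 and is described with the processing alternatives.

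Fos, Egr1 and Junb rose and fell together from rat to rat. Pearson's r over the 840 rats was 0.897 between Fos and Egr1 (Spearman's rho 0.9), 0.842 between Fos and Junb (rho 0.792) and 0.801 between Egr1 and Junb (rho 0.78). The permutation p was 1e-05 for each of these 3 correlations, raw and after Benjamini-Hochberg adjustment, and the resamples allow none smaller. Leaving out the 2 rats farthest from the median changed r to 0.896, 0.84 and 0.799. Rats share vehicles, studies and arrays, so the correlation was also taken over deviations from the mean of each study, treatment and day, where it was 0.859, 0.775 and 0.753 over 736 rats. Within the 5 extraction campaigns r lay between 0.85 and 0.928 for Fos and Egr1, between 0.767 and 0.884 for Fos and Junb, and between 0.719 and 0.91 for Egr1 and Junb.

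**Figure D1:**
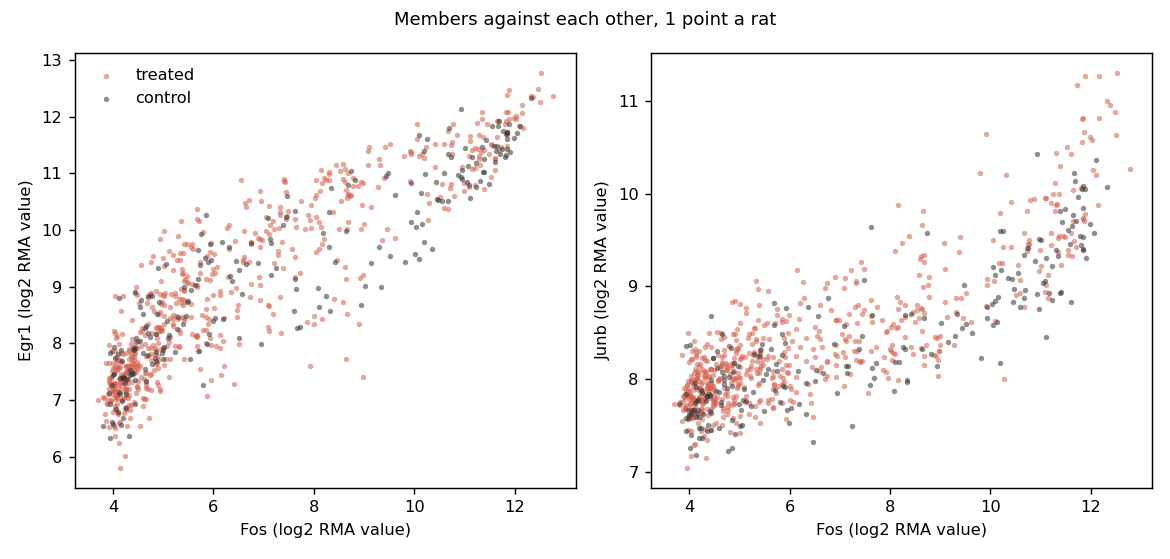
Egr1 (left) and Junb (right) against Fos, in log2 RMA values, with 1 point for each of 611 treated rats (red) and 217 control rats (grey). Treated and control rats lie along the same band, Egr1 climbs along the whole Fos scale, and Junb climbs mostly where Fos is above 9.

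The genes most like each of the 3 over the 840 rats were other immediate early genes. For Fos, the 10 with the highest r, between 0.762 and 0.897, were Egr1, Zfp36, Fosb, Junb, Nr4a1, Dusp1, Jun, Otud1, Egr2 and Ccn1. Egr2, Fosb and Zfp36, the last encoding a protein that speeds the decay of early messenger RNAs, were among the 10 for all 3 genes. Of the 10, the member and early gene lists held 9 for Fos, 8 for Egr1 and 9 for Junb. The median level of the upstream factors, Srf, Creb1 and their kinases among them, had an r of 0.1 with Fos, endothelial markers 0.2, liver genes 0.16 and heart muscle genes 0.019.

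The first comparison asked how far control hearts differed from study to study. It took the 217 control rats of 52 studies, with vehicle, route, duration and campaign held as 1 factor of 48 levels. Study accounted for 62.3% of the remaining variance of Fos, 62.2% of Egr1 and 49.7% of Junb, against a median of 28.8% over all genes. The limma F-test gave Benjamini-Hochberg adjusted p-values of 9.31e-11 for Fos, 1.04e-10 for Egr1 and 2.06e-05 for Junb. Study was called for 9.4% of all 14217 genes in this test, at an adjusted p of 0.01 or less. Within a study the control SD remained 1.9 for Fos, 1.02 for Egr1 and 0.596 for Junb, so rats treated alike in the same study still differed widely. In studies whose code begins with R alone, the share was 2.37% for Fos, 2.66% for Egr1 and 2.75% for Junb, and none was called. Fewer studies were left there to compare, and the share leaves out differences that go with vehicle, route, duration or campaign. Control medians of Fos in the R studies still ran from 4.02 to 7.14. Without the R studies the share was 47.5% for Junb (adjusted p 0.0108), which was not called either.

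Other early genes also differed between studies, and so did genes of heart muscle. Called were 2 of 5 AP-1 partners (Fosb and Jun), 1 of 5 genes of the EGR family and its corepressors (Egr2), 9 of 14 other immediate early transcription factors, among them Atf3, Nr4a1 and Klf4, and 9 of 15 feedback and signalling genes, among them the phosphatases Dusp1 and Dusp5. Of the 8 secreted early genes 1 was called, Ccn1, and of the 11 upstream factors 2, Srf and Elk3. Of the 12 heart muscle genes 10 were called, with Myh6 and Tnnt2 among them, so that a difference between studies was not particular to early genes.

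**Figure D2:**
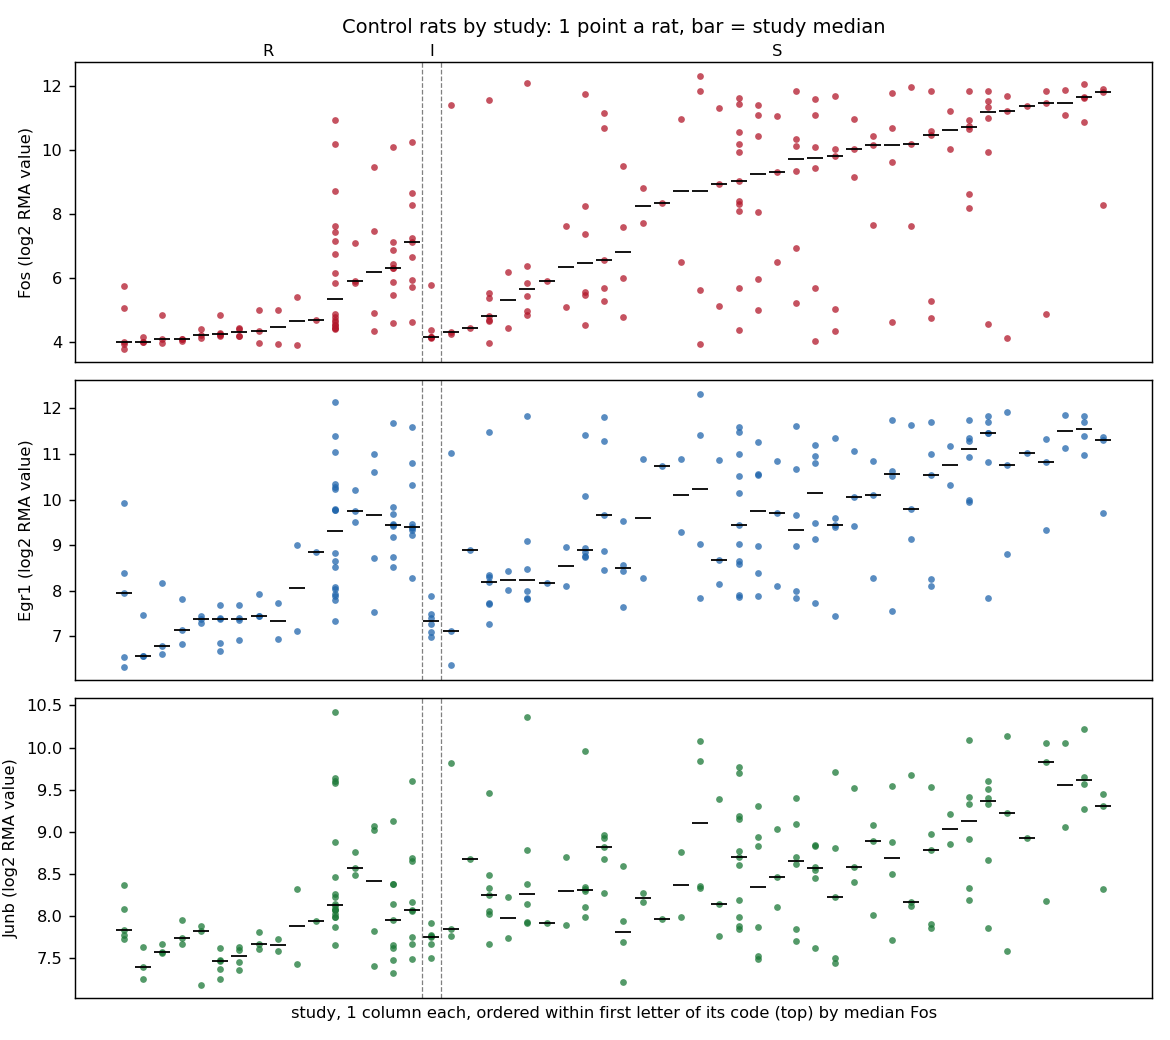
Fos (top), Egr1 (middle) and Junb (bottom) in log2 RMA values, with 1 point per control rat, 1 column per study and a bar at the study median, ordered by the Fos median within the first letter of the study code. In 8 of the 16 studies coded R every control rat had Fos under 5, while 29 of the 35 studies coded S had at least 1 rat at 9 or more.

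The study codes begin with R, S or I, letters whose meaning the labels do not give, and the split by letter was chosen after the values were seen. Fos in control rats ran between 3.80 and 10.9 with a median of 4.85 in the 16 R studies (77 rats), and between 3.94 and 12.3 with a median of 9.32 in the 35 S studies (134 rats). The 6 control rats of the only I study lay between 4.13 and 5.80. In 8 R studies every control rat was under 5, as in 1 S study, and 4 R studies had any rat at 9 or more, against 29 S studies. Control rats of the same study could lie at both ends of the scale, since 17 S studies spanned more than 5 log2 units.

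CMC gavage in the first extraction campaign had R and S controls at 3 durations. At 1 day Fos lay between 3.94 and 5.02 in 6 R rats and between 4.59 and 10.0 in 3 S rats, which overlapped. At 3 days it lay between 3.98 and 4.35 in 5 R rats and between 7.72 and 11.0 in 4 S rats, and at 5 days between 3.99 and 4.99 in 6 R rats and between 5.69 and 11.8 in 3 S rats, without overlap. Egr1 at 3 days lay between 6.56 and 7.81 in the R rats and between 8.28 and 11.5 in the S rats, also without overlap.

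Over the 11 combinations of vehicle, route, duration and campaign that held both letters, 36 R rats and 62 S rats, R minus S was −4.47 ± 0.522 (SE) for Fos, with a 95% interval from −5.50 to −3.44. It was −2.45 ± 0.277 for Egr1 and −1.01 ± 0.151 for Junb. The R controls outside these combinations entered only the error of the fit. They included studies with Fos medians of 5.36, 6.32 and 7.14. These errors count rats, and the letters divide whole studies, so the fit was repeated with study as a random block. R minus S was then −4.42 ± 0.560 for Fos (limma adjusted p 2.41e-09), −2.42 ± 0.297 for Egr1 (1.17e-09) and −1.0 ± 0.163 for Junb (5.08e-06). The block used 1 correlation within studies, 0.0625, for all genes, and none of its own for each of the 3. Whether these errors are large enough for the 3 genes was not tested. Since the split was chosen on these values, these p-values are no independent evidence for it. Called were 38 genes, 0.267% of those tested, in the fit without study, 37 of them lower in R, and 33 genes (0.232%) with study as a block, all 33 among the 38. Of the 38, 17 belonged to the 61 measured genes of the member and early gene lists. They were Fos, Egr1, Junb, Atf3, Nr4a1, Nr4a2, Nr4a3, Fosb, Jun, Dusp1, Ier2, Egr2, Zfp36, Gadd45g, Ccn1, Ccl2 and Klf2. Lower in R as well were the liver gene Alb (−2.40) and the cell cycle genes Mki67 (−0.85), Cdk1 (−0.78) and Top2a (−0.63), and their part in the result was not tested. None of 12 heart muscle, 7 fibroblast, 6 endothelial or 9 macrophage markers was called.

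Fos in treated rats was also lower in R than in S studies. It had a median of 4.43 in the 233 treated rats and 4.85 in the 77 control rats of R studies, and of 6.75 in the 372 treated rats and 9.32 in the 134 control rats of S studies. Across 21 S studies with both kinds of rat, the mean Fos of treated and of control rats had an r of 0.667 and a rho of 0.619, with adjusted permutation p-values of 0.0084 and 0.011 over 12 tests. Without the 2 studies farthest from the median r was 0.671. Across 12 R studies r was 0.797 (adjusted permutation p 0.011) and rho 0.552 (0.067), and r was 0.611 without the 2 farthest. For Egr1 r was 0.533 (adjusted permutation p 0.026) across S and 0.85 (0.0084) across R studies. Junb was less steady, with r at 0.413 (0.067) across S and 0.76 (0.012) across R studies, and at 0.292 and 0.298 without the 2 farthest studies.

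The time of day of the harvest follows the duration, and the next comparison set 52 control rats of 1 day against 157 of 3 and 5 days, within study, vehicle and route. Fos averaged 6.54 at 1 day and 7.71 at 3 and 5 days, and the difference within studies was −0.89 ± 0.345 (SE, limma adjusted p 0.15). For Egr1 it was −0.36 ± 0.197 (0.402), and for Junb −0.14 ± 0.109 (0.575). None of the 3 passed the threshold, and 0.0774% of all genes did.

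Pooled over compounds, treated hearts had lower Fos than control hearts of their own study. This comparison was added after the values were seen, and used 289 treated rats of 46 compounds and 125 control rats of the same 28 studies, vehicles, routes, durations and campaigns. Fos averaged 6.20 in treated rats and 6.73 in control rats, a difference of −0.65 ± 0.187 within those groups (SE, 95% interval −1.02 to −0.28, limma adjusted p 0.00655). Egr1 differed by −0.30 ± 0.109 (adjusted p 0.0424) and Junb by −0.02 ± 0.0597 (0.876), neither of which was called. These errors and p-values count rats, not the 46 compounds, since the fit held no term for compound. They do not measure the spread between compounds. In R studies alone the Fos difference was −0.30 (adjusted p 0.527) and in S and I studies alone −0.95 (0.0112), so that Fos was called in neither, and whether they differ was not tested. With fold and p thresholds as elsewhere, 14 genes were called, 0.0985% of those tested. Besides Fos they were the clock genes Bmal1, Dbp, Nr1d2 and Per3, the red cell genes Alas2, Hba-a3, Hbb and Slc4a1, and Alox15, Rhobtb1, Sult1a1, Tent5c and Tfrc.

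The main comparison set each compound and dose, here called a profile, against its matched controls, the vehicle-only rats that shared its vehicle, route, duration and campaign. Matched controls were found for 95 of 97 profiles, with 3 to 9 treated rats and 3 to 28 controls in each. Many profiles share controls, so their changes are not independent of each other. Across profiles Fos had a median change of −1.09, and 67 of 95 were below 0. Egr1 had a median of −0.41 and Junb of −0.04.

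Although 78 of the 95 Fos changes exceeded 1.5-fold, 74 of these 78 were not called. The median SE of a change was 1.08 for Fos, 0.578 for Egr1 and 0.294 for Junb, against 0.0903 over all genes and profiles. To be called, a gene needed an adjusted p no greater than 0.01 and at least a 1.5-fold change. By this rule 13 of the 285 tests of the 3 genes were called (4.56%), 5 higher and 8 lower, against 0.702% of all tests of all genes, of which 0.357% were higher and 0.344% lower. Fos was called in 4 profiles, Egr1 in 6 and Junb in 3, and 5.96%, 3.4% and 8.36% of all genes were called in at least as many. The Fos calls rest on 1 of its 2 probe sets, since the other gave 0 calls in 95 profiles, and with controls of every campaign Fos was called in 0 profiles too.

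**Figure D3:**
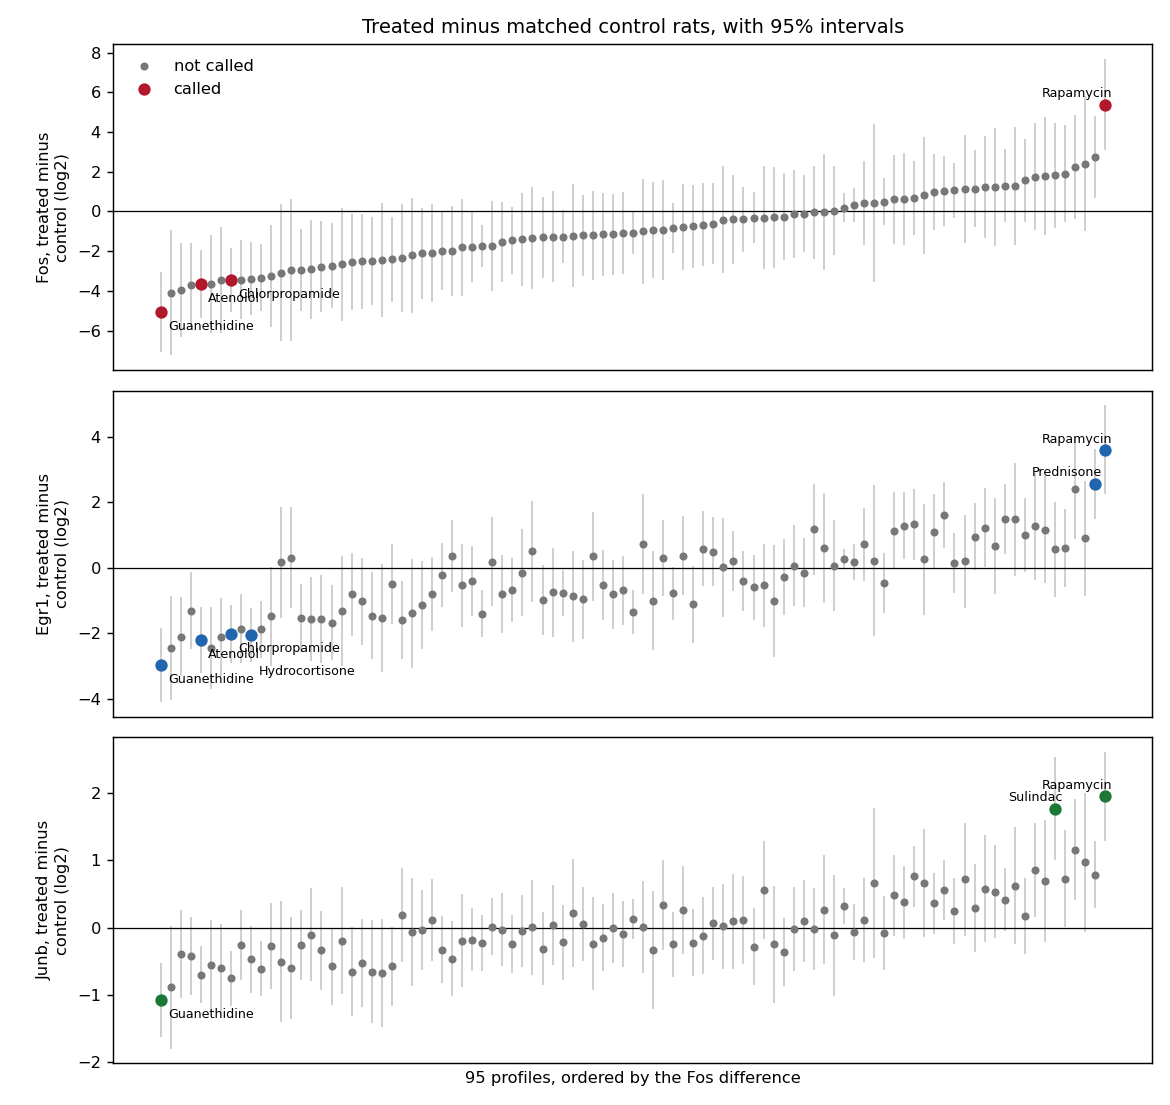
Treated minus matched control rats in log2 units for Fos (top), Egr1 (middle) and Junb (bottom) in 95 profiles ordered by the Fos difference, with 95% intervals as grey lines and called profiles in colour. Called profiles lie at both ends, from guanethidine at −5.07 to rapamycin at 5.38 for Fos, and most intervals of the others cross 0.

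Rapamycin, an inhibitor of the mTOR kinase, was the only profile in which all 3 genes were called higher. At 60 mg/kg in CMC, Fos was 10.7, 11.2 and 11.7 in 3 treated rats at 3 days and 11.3, 12.0 and 12.5 in 3 at 5 days, against 18 matched controls between 3.98 and 11.8 with a median of 4.29. The 11 lowest controls came from R studies, and the upper ones overlapped with the treated rats. Fos was higher by 5.38 ± 1.12 (SE, adjusted p 0.00606), and by 0.30 (0.168) with its other probe set. Egr1 lay between 11.4 and 12.8 in treated rats and between 6.56 and 11.7 in controls (difference 3.60 ± 0.660, adjusted p 0.0022). Junb lay between 9.49 and 11.3 in treated rats and between 7.18 and 9.52 in controls, overlapping only at its lowest treated rat (1.95 ± 0.320, adjusted p 0.000752). In this profile 0.513% of all genes were called.

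Much of the early program was also higher in the rapamycin rats than in these matched controls. Of the AP-1 partners 2 of 5 rose, Fosb by 4.23 and Jun by 1.53. Of the other immediate early factors 10 of 14 rose, with Atf3 at 4.07, Nr4a3 at 4.03 and Nr4a1 at 3.39. Of the feedback genes 7 of 15 rose, with Zfp36 at 2.06, and of the secreted genes 3 of 8, with Ccn1, a matrix protein gene, at 2.26. No upstream factor and no marker of any cell type was called. The rapamycin rats came from an S study, while most of their matched controls came from R studies. Fosb, Jun, Atf3, Nr4a3, Nr4a1, Zfp36 and Ccn1 were also lower in R than in S control rats. The part of the study letter in these differences was not tested. Controls of the rapamycin study that received CMC by gavage, in another campaign, had Fos at 11.7 at 3 days and at 9.82 and 10.0 at 5 days. The remaining controls of that study had Fos at 4.36 and 5.06. Against S controls of every campaign the difference was 2.27 for Fos (adjusted p 0.177), 1.77 for Egr1 (0.0759) and 1.24 for Junb (0.0237), and none was called. With controls of the same letter, 0.789% of all tests in all profiles were called.

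Guanethidine, which blocks noradrenaline release from sympathetic nerves, was the only profile in which all 3 genes were called lower. At 132 mg/kg in CMC, Fos was 3.84, 4.10 and 4.19 in treated rats at 3 days and 4.07, 4.25 and 4.88 at 5 days, against 11 matched controls between 5.12 and 11.7 with a median of 10.0. No treated rat reached the lowest control. Fos differed by −5.07 ± 0.961 (SE, adjusted p 0.00215), Egr1 by −2.98 ± 0.534 (0.00151) and Junb by −1.08 ± 0.260 (0.00883). Egr1 did not overlap either, at 6.75 to 7.65 in treated rats and 8.15 to 11.8 in controls, while Junb did, at 7.28 to 8.14 in treated rats and 7.76 to 9.71 in controls. In this profile 1.44% of all genes were called. Of the early gene lists Jund, Klf2, Klf4, Ier5, Dusp5, Rgs2, Sgk1, Gadd45g and Ccl2 were lower, as was the upstream factor Srf. Among cell type markers Tcap of heart muscle was higher, and Slc4a1 of red cells (1 of 4), Lyz2 of macrophages (1 of 9) and Cd93 of endothelium (1 of 6) were lower. The list medians lay between 7.42 and 8.37 in treated rats and 8.15 and 9.43 in controls for red cells, and between 9.21 and 9.46 in treated rats and 9.56 and 9.86 in controls for endothelium. Their part in the result was not tested.

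Atenolol, a blocker of the beta-1 adrenergic receptor, had lower Fos and Egr1 at 1000 mg/kg in CMC. Fos lay between 3.92 and 4.26 in 8 treated rats and between 3.94 and 11.7, with a median of 6.24, in 20 controls (−3.66 ± 0.844, adjusted p 0.00501). Another treated rat had no matched control and was left out. Egr1 lay between 5.80 and 7.82 in treated rats and between 6.84 and 11.8 in controls (−2.21 ± 0.496, adjusted p 0.00448). For Junb the difference was −0.70 and was not called, and 2.54% of all genes were. Of 7 fibroblast markers 5 were lower, and the median of the list lay between 9.13 and 11.9 in treated rats and between 11.3 and 13.0 in controls. The red cell genes Alas2 and Slc4a1 (2 of 4), Cd93 of endothelium (1 of 6) and the upstream factors Elk3 and Elk4 (2 of 11) were lower too. Their part in the result was not tested. The treated rat with Egr1 at 5.80 stood apart from the other 7, with a heart muscle median of 12.2 against 13.8 to 14.0 in them and 13.5 to 14.0 in controls, and the 9.13 above is its fibroblast median. Without it the difference was −3.44 for Fos (adjusted p 0.00917) and −1.90 for Egr1 (0.00899), both still called. Without the 33 arrays of low correlation or with liver or fat cell genes, of which it is 1, they were −3.24 (0.0142) and −1.77 (0.0133), and neither was called.

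Chlorpropamide, a sulfonylurea that releases insulin, had the same 2 genes lower at 269 mg/kg in CMC, with the same 20 controls as atenolol. Fos lay between 4.02 and 4.53 in 9 treated rats and differed by −3.45 ± 0.798 (adjusted p 0.00734), and Egr1 lay between 6.88 and 7.81 and differed by −2.02 ± 0.436 (0.00476). In this profile 0.457% of all genes were called. Lower too were 2 of 5 AP-1 partners, Jun and Jund (−0.63 for Jund), and 2 of 15 feedback genes, Gadd45g (−1.44) and Sgk1 (−0.89). So were Klf10 and Ier3 (2 of 14 other early factors) and Ccn2 (1 of 8 secreted genes). Among cell type markers Col1a2 and Postn of fibroblasts (2 of 7) and Cd93 of endothelium (1 of 6) were lower. The fibroblast median lay between 10.5 and 11.6 in treated rats and between 11.3 and 13.0 in controls, and its part in the result was not tested.

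The rats of these 3 profiles came from R studies, while all of their 11 controls of 3 and 5 days came from S studies. Treated rats and controls thus differed in study letter as well as in compound, and at 3 and 5 days the 2 cannot be told apart. Against R controls of every campaign, the Fos difference was 0.04 after guanethidine (adjusted p 0.873), −0.06 after atenolol (0.746) and 0.09 after chlorpropamide (0.599). With the other Fos probe set and the matched controls it was 0.23 after guanethidine (0.174), 0.40 after atenolol (0.0238) and 0.18 after chlorpropamide (0.245). The guanethidine study had its own controls in another campaign, with Fos at 3.94 and 4.99, inside the range of R controls.

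**Figure D4:**
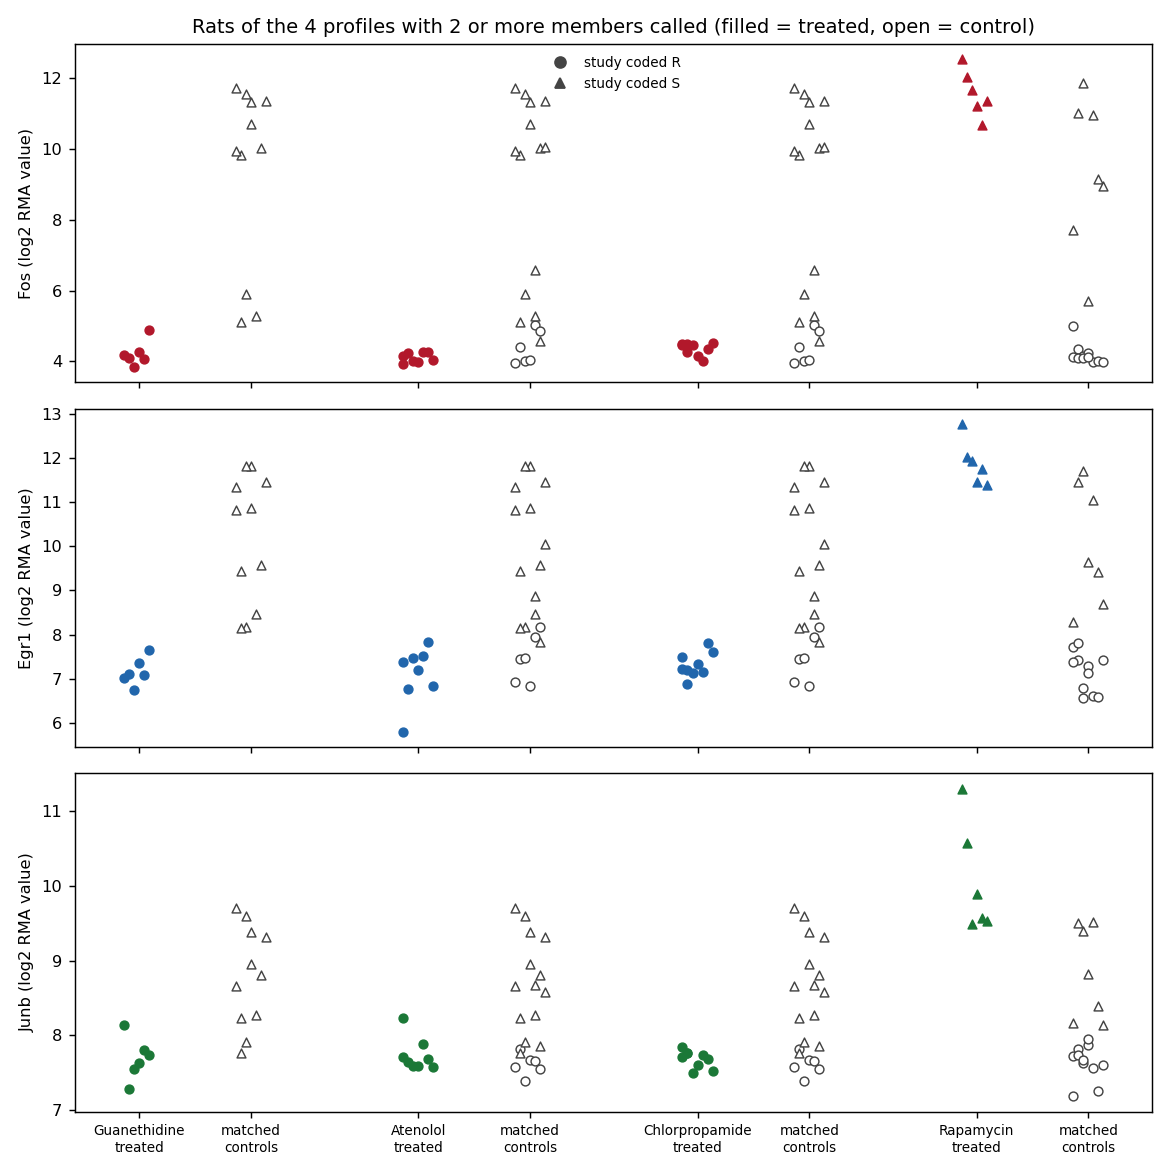
Fos (top), Egr1 (middle) and Junb (bottom) in log2 RMA values in each treated rat (filled) and matched control (open) of guanethidine, atenolol, chlorpropamide and rapamycin, circles for R studies and triangles for S studies. Low controls are mostly circles and high controls are triangles, and each set of treated rats holds 1 letter only.

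In 3 further profiles 1 gene was called. Hydrocortisone, a glucocorticoid, at 56 mg/kg under the skin in corn oil gave Egr1 between 6.97 and 9.24 in 9 treated rats and between 8.73 and 11.4 in 9 controls, a difference of −2.05 ± 0.395 (adjusted p 0.00164). It was the only called profile with controls of its own study, and against those 6 rats alone the difference was −1.61 (adjusted p 0.0214) and was not called. Fosb (−2.17), Nr4a1 (−1.79), Egr2 (−1.20) and Jun (−1.12) were lower too, as were 5 of 7 fibroblast markers, and 5 of 9 macrophage markers were higher. The medians of these lists lay between 10.0 and 11.8 in treated rats and 11.6 and 12.2 in controls for fibroblasts, and between 8.16 and 8.62 in treated rats and 7.77 and 8.91 in controls for macrophages. In this profile 2.64% of all genes were called.

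Prednisone, a precursor of the glucocorticoid prednisolone, at 68 mg/kg in CMC gave the opposite sign. Egr1 was 10.2, 10.5 and 10.9 in 3 treated rats at 1 day and lay between 6.84 and 10.0 in 9 controls, without overlap (2.57 ± 0.501, adjusted p 0.00834). Nr4a1 (2.38), Fosb (2.10) and Egr2 (1.22) were higher too, and 1.43% of all genes were called. The treated rats came from an S study and 6 of the 9 controls from R studies. Against the 3 S controls alone, which lay between 7.84 and 10.0, the Egr1 difference was 1.60 ± 0.451 (adjusted p 0.246) and was not called. The controls of its own study, which received saline, had Egr1 at 9.13, 9.79 and 11.6.

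Sulindac, an inhibitor of prostaglandin synthesis, at 132 mg/kg in corn oil had Junb alone of the 3 called higher. Junb lay between 9.82 and 11.3 in 5 treated rats and between 7.22 and 10.1 in 19 controls (1.77 ± 0.370, adjusted p 0.00106), with 5.56% of all genes called. Cxcl1 (3.12), Myc (2.29) and Il6 (1.52) rose as well. So did 3 of 4 neutrophil and all 9 macrophage markers, while 4 of 7 fibroblast markers fell. The neutrophil median lay between 8.90 and 12.2 in treated rats and between 5.30 and 6.95 in controls, and the macrophage median between 9.25 and 9.68 in treated rats and between 7.40 and 8.44 in controls. Their part in the Junb result was not tested.

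Groups of related compounds were also set side by side against their matched controls. In 5 profiles of 4 adrenergic agonists the Fos change ran from −2.50 to 0.49, in 3 profiles of 2 renin-angiotensin hormones from −0.32 to 0.32, in 4 of 3 angiotensin receptor blockers from −1.98 to 1.29, and in 5 of anthracyclines and mitoxantrone from −2.73 to 1.57. No member was called in any of these, nor in 3 profiles of fibrates (Fos from −2.92 to −0.61) or 7 of ion channel and pump agents (−3.08 to 2.25). In 3 profiles of 2 beta blockers Fos ran from −3.66 to −1.76, with atenolol the only call. In 7 profiles of glucocorticoids Fos ran from −3.39 to 2.73, and Egr1 from −2.05 to 2.57 with a median of 0.20. Egr1 after hydrocortisone and after prednisone were the only calls among them. In 4 profiles of calcineurin inhibitors and rapamycin Fos ran from −1.80 to 5.38, with rapamycin the only profile called.

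Against controls of their own study alone, 51 profiles could be fitted and 0.153% of all tests were called. Fos was called in 3, all lower, with metoprolol 1200 mg/kg (−6.05), rofecoxib 775 mg/kg (−6.70) and valsartan 1000 mg/kg (−6.56). Egr1 was called with valsartan (−3.11) and Junb in none. Each of these 3 rests on 1 control rat, with Fos at 11.6, 11.6 and 10.7. The other controls of the rofecoxib study, which received saline, had Fos between 3.98 and 5.53. The median change over the 51 profiles was −0.300 for Fos, −0.222 for Egr1 and 0.000715 for Junb.

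Against controls of the same study letter, from every campaign, 0.789% of all tests of all genes were called. Fos was called in 3 profiles, none of them among its 4 above, and Egr1 in 4, of which hydrocortisone was also among its 6 above. Fos and Egr1 were both lower after rofecoxib, an inhibitor of prostaglandin synthesis, fenofibrate, a fibrate, and terfenadine, an antihistamine. At 775 mg/kg of rofecoxib Fos lay between 4.41 and 5.33 in 6 treated rats and between 4.78 and 12.3 in 12 controls (−5.60 ± 0.799, adjusted p 0.000354), and Egr1 differed by −2.77 ± 0.459 (0.00156). At 215 mg/kg of fenofibrate Fos lay between 4.33 and 9.37 in 6 treated rats, with the same 12 controls as rofecoxib (−4.55 ± 0.926, adjusted p 0.00321), and Egr1 differed by −2.31 ± 0.501 (0.00528). At 750 mg/kg of terfenadine Fos lay between 4.26 and 6.50 in 6 treated rats and between 5.12 and 11.8 in 18 controls (−4.36 ± 0.917, adjusted p 0.00188), and Egr1 differed by −2.58 ± 0.551 (0.00211). Treated rats overlapped with controls in all 3 profiles, and Junb was called in none of them. With the matched controls of the main comparison, Fos differed by −2.92 (limma adjusted p 0.199) after fenofibrate and by −1.27 (0.531) after terfenadine. Campaign was not matched in the comparison by letter, and its part in these differences was not tested.

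In rats given imatinib, an inhibitor of the ABL, KIT and PDGF receptor kinases, all 3 genes differed from controls, in opposite directions at different durations. The rats received 150 mg/kg in water, with 3 treated rats and 3 controls of the same study and campaign at each duration. At 1 day Fos was 4.51, 4.75 and 5.47 in treated rats and 9.94, 10.2 and 10.6 in controls. At 3 days it was 10.5, 11.0 and 11.0 in treated rats and 5.71, 8.10 and 8.33 in controls, and at 5 days 10.4, 11.1 and 11.6 in treated rats and 4.39, 8.42 and 9.02 in controls. The groups overlapped at no duration, and the controls were themselves highest at 1 day, when hearts were taken in the afternoon.

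The changes at 1, 3 and 5 days were −5.32, 3.44 and 3.78 for Fos, −1.44, 2.48 and 2.82 for Egr1, and −1.02, 1.14 and 1.00 for Junb. The limma F-test of treatment by duration gave adjusted p-values of 0.00293, 0.000334 and 0.00435. Among 231 such tests of the 3 genes in 77 profiles these 3 alone were called, against 0.117% of all tests of all genes, and in this profile 14 genes were called (0.0985%). Of the 14, 10 were in the member and early gene lists, with Nr4a1, Fosb, Jun, Atf3, Dusp1, Egr2 and Sik1 beside the 3. Nr4a1 changed by −1.53, 2.79 and 2.69, while Atf3 changed by 0.08, 2.85 and 4.84. The other 4 were Otud1, Txnip, Xirp1 and Tob1.

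**Figure D5:**
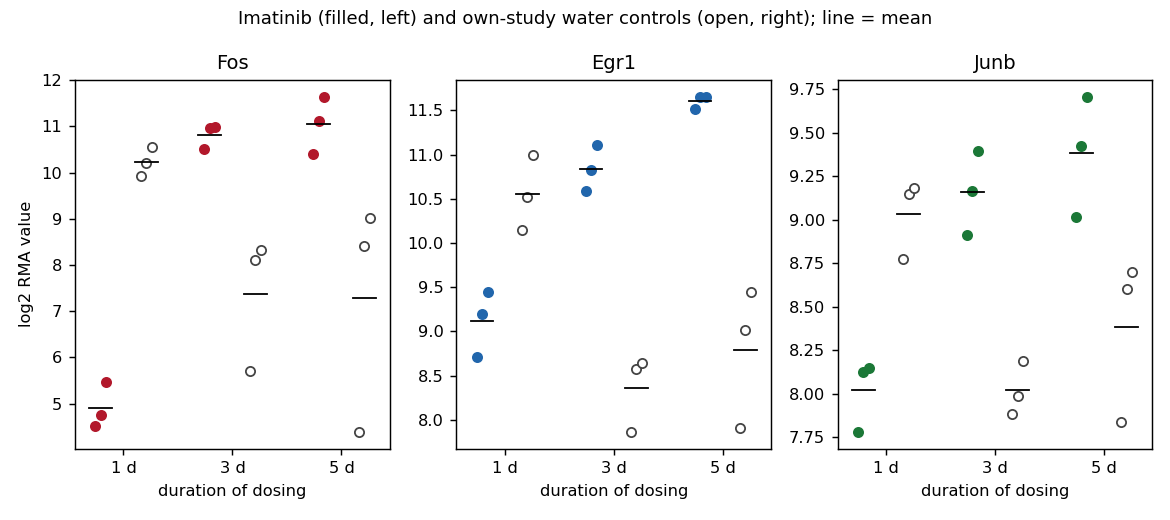
Fos (left), Egr1 (middle) and Junb (right) in log2 RMA values in rats given imatinib (filled, left of each pair) and own-study water controls (open, right) at 1, 3 and 5 days, with a line at each mean of 3. Treated rats lie below the controls at 1 day and above them at 3 and 5 days for each gene.

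Averaged over durations, imatinib at 150 mg/kg gave 0.63 ± 1.10 (SE) for Fos, 1.29 ± 0.486 for Egr1 and 0.37 ± 0.259 for Junb, none called. At 15 mg/kg, with the same 9 controls, the Fos changes at 1, 3 and 5 days were −1.20, 2.32 and 2.32, and the treatment by duration test was not called (adjusted p 0.827). The difference between the doses was not tested. Leaving out each of the 18 rats in turn, the test of treatment by duration remained called for Egr1 in 18 of 18 fits, for Fos in 13 and for Junb in 11, with adjusted p at most 0.0174 for Fos and 0.0235 for Junb.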

How the data were processed

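Hearts were measured on Affymetrix RG230_2.0 arrays. The deposited log2 values were used as the authors gave them. RMA, a background correction, normalization between arrays and summary of probes, is named in the submitters' notes, and frma in the paper's methods. Their versions were not given in the sources used here. Values ran from 3.15 to 14.8, with 0 array columns left out. The number of rats limits the precision, since arrays have no depth. Of 31099 probe sets, 57 controls were left out and 20826 had 1 gene symbol, which gave 14217 genes, each by its probe set of highest mean.

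Groups came from the labels. For the 22 rats with 2 arrays, only the array from the earlier campaign was kept (862 arrays, 840 rats). For 12 control rats the labels disagreed, and they matched no profile. Fits used limma 3.58.1 in R 4.3.3 with duration and campaign as 1 factor, on all genes, and a call needed a Benjamini-Hochberg adjusted p no greater than 0.01 and a 1.5-fold change. The fit was tested on simulated data, with rats drawn independently and, for profiles, without differences between studies. It therefore cannot show how such differences affect the calls. No matched controls were found for 2'-Beta-Fluoro-2',3'-Deoxyadenosine and for oral daunorubicin. Control rats of saline mini-pumps labelled subcutaneous in 5 cases were set to mini-pump from their titles. The 3 genes, the gene lists and the tests were chosen with earlier results of these data known. Profiles with at least 2 of the 3 genes called in the same direction were described rat by rat, and values within a list were given for its largest changes. The letter split, its fit with study as a block, the pooled fit and the alternatives for imatinib were added after the values were seen. Sequences come from RefSeq, and the Fos promoter was not used here. Permutation tests were two-sided, with 100000 resamples in scipy 1.17.1.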

Additional observations from a re-analysis of the deposited data

Results flagged for a closer look

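The change of each gene after imatinib at 150 mg/kg differed between durations by limma's F-test of treatment by duration, with adjusted p-values of 0.000334 for Egr1, 0.00293 for Fos and 0.00435 for Junb. Each was lower than in controls at 1 day and higher at 3 and 5 days.

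Among 39 groups of 4 to 10 rats, 2 held a rat set apart from the rest by Dixon's criterion, which chance gives in about 1 in 20 groups. Junb was 8.24 in 1 of 8 rats given atenolol, with the next rat at 7.88 and the lowest at 7.57. Fos was 10.0 (10.041 before rounding) in 1 of 9 controls matched to prednisone, with the next at 6.57 and the lowest at 3.94.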

How the results depend on the processing

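No paired analysis was possible because the labels give no replicate numbers shared between treated and control rats. Against 4, 6 and 3 profiles with Fos, Egr1 and Junb called, Fos was called in 0 with controls of every campaign, in 2 with study and in 2 with hybridisation batch as a random block, in 1 by the methods' two-group test, in 2 without 33 arrays of low correlation or with liver or fat cell genes, and in 0 with its other probe set. Of all tests of all genes, 0.556% to 0.913% were called under these settings, and 0.153% with controls of the own study. Egr1 was called in 1 with controls of the own study and in 2 with controls of every campaign. Junb was called in 0 with controls of the own study and in 1 with controls of the same study letter. With controls of the same letter Fos was called in 3 and Egr1 in 4, of which 0 and 1 were called with matched controls. With the other Fos probe set, Fos changed sign to 0.40 after atenolol, 0.18 after chlorpropamide and 0.23 after guanethidine. With controls of the same letter, the signs turned after chlorpropamide for Fos (0.094) and Egr1 (0.052), and after guanethidine for Fos (0.036), Egr1 (0.0076) and Junb (0.049). The causes were not tested.

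The study share of control variance was 2.37%, 2.66% and 2.75% for Fos, Egr1 and Junb in R studies alone, which left fewer studies to compare, and 47.5% for Junb (adjusted p 0.0108) without R. The pooled Fos difference was −0.30 in R and −0.95 in S and I studies alone, neither called, and whether these differ was not tested.

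Leaving out each rat in turn, Fos after guanethidine ran from −5.48 to −4.77 and remained called in 17 of 17 fits, while Junb remained in 3 of 17. Fos after rapamycin ran from 5.17 to 5.73 (18 of 24 called), after atenolol from −3.99 to −3.42 (25 of 28) and after chlorpropamide from −3.76 to −3.21 (17 of 29). The largest adjusted p among these was 0.0302. Over all fits with a rat left out, those for imatinib included, 293 values kept direction and call, 53 lost the call and 2 gained it. Under the processing alternatives of the same kinds of result, 159 values kept direction and call, 40 lost the call, 1 gained it and 8 changed sign.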

Other observations

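The 12 control rats whose labels disagree on vehicle or route entered no comparison. Fos in them ran from 4.57 to 12.4 with a median of 5.91, Egr1 from 8.24 to 12.1 and Junb from 7.52 to 10.5. The rat with the highest Fos also had the highest Egr1 and Junb.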
